A study of Mus musculus with 6 samples.

Results

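The genes described here are 35 targets of the transcription factor NRF2 and antioxidant enzymes, measured in the mouse ovary. They were chosen by known role and found by the gene name of each probe in the scanner files. The list was read by 49 probes, and 34 of the 35 genes had a probe above background, of 19412 such genes in all. Ovaries came from female C57BL/6J mice aged 20 weeks, and 3 samples came from knockouts of Selenbp1 (labelled SeBP1), which encodes a selenium-binding protein, against 3 wild-type samples. The labels name no other allele or agent, and do not give the deleted part of the gene, the stage of the oestrous cycle or whether the knockouts and wild types were littermates. RNA of each sample was labelled with Cy3 and read on its own Agilent expression array. The comparison asks whether deletion of Selenbp1 was accompanied by a change in these genes in the ovary.

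NRF2, encoded by Nfe2l2, is held in the cytoplasm and marked for degradation by KEAP1. Oxidants and electrophiles modify KEAP1, NRF2 then enters the nucleus, pairs with a small MAF protein such as MAFG and binds antioxidant response elements, where BACH1 competes with it. Its targets make and recycle glutathione and thioredoxin, supply NADPH, conjugate and export reactive molecules, and handle haem and iron. In the ovary, steroid synthesis, ovulation and the regression of the corpus luteum are known sources of reactive oxygen.

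The antioxidant response element is shown first, because it is the sequence that NRF2 binds at its targets. Its core, TGACNNNGC, was searched on both strands of the RefSeq promoter windows of build GRCm38.p6, which run from 250 bases before to 50 bases after an annotated start site. Of the 35 genes, 29 had at least 1 window, and 11 of these 29 (37.9%) held the core, against 14.0% of all 27025 genes with a window and 12.4% of all 32851 windows. A match is a stretch of letters, not a binding site. Each is printed 5′ to 3′ on the strand that reads TGAC, with the 9 matching bases in capitals and up to 10 bases on either side.

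Prdx1: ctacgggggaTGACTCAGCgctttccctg
Me1: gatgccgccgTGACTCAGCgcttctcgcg
Gclm: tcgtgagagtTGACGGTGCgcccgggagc
Nfe2l2: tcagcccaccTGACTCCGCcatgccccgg
Mafg: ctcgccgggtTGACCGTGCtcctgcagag
Mgst1: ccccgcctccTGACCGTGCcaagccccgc
Sod1: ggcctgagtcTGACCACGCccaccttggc
G6pdx: gcgtgtgcttTGACTGAGCtgacccgcct
Srxn1: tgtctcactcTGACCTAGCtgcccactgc
Pgd: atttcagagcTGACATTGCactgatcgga
Abcc4, first window: cggcccgcccTGACCCCGCctctcggggc
Abcc4, second window: aataatctcgTGACTCTGCcgtggtggat

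Prdx1 and Me1 held TGACTCAGC, the core with its free bases read as TCA, which 0.503% of all genes with a window held. In Prdx1 (stretch at chr4:116685456-116685484, GRCm38.p6) the capitals begin 133 bases before the start site, and in Me1 (chr9:86695902-86695930) 6 bases before it. In Gclm they begin 134 bases before the start site (chr3:122245413-122245441), in Nfe2l2 240 bases before it (chr2:75704885-75704913), in Mafg 222 bases before it (chr11:120633751-120633779) and in G6pdx 57 bases before it (chrX:74428919-74428947). Mgst1 (chr6:138140461-138140489) and Sod1 (chr16:90220696-90220724) both had theirs 56 bases before the start site. Those of Srxn1 (chr2:152105542-152105570) and Pgd (chr4:149166061-149166089) lay after the start site. Abcc4 had a match in each of its windows (chr14:118706226-118706254 and chr14:118676936-118676964). Distances are those of the first base of the match along the direction of the gene. The windows of Keap1, Nqo1, Txn1, Cat and Fth1 had no match, and a window this short leaves out more distant elements.

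Selenbp1 itself was far lower in the samples labelled knockout. On a log2 scale that sets the 75th percentile of an array to 0, used for every log2 signal here, it was at -0.11, 0.025 and -0.37 in knockout replicates 1 to 3, against 2.68, 2.52 and 2.59 in wild type replicates 1 to 3. All knockouts lay below all wild types, with a difference of -2.75 (standard error 0.13, limma adjusted p = 0.0104). The call was lost with slide as a block (adjusted p = 0.0792), on the shared slide alone (0.347), with the replicate block (0.557) and when any of 4 of the 6 arrays was left out. The probe lies at chr3:94748621-94748680 (mm9, as for every probe position here), and may lie outside the deleted part. Between 61.6% and 69.3% of the spots on an array were well above background. Granulosa and oocyte markers fixed for the check (Foxl2, Fshr, Amh, Inha, Cyp19a1, Zp3, Gdf9, Oosp1, Ooep and Bmp15) were well above background on all 6 arrays. Of 5 liver genes, Alb and Ttr were so on 0 arrays, Cyp2c29 on 2, and Apoa2 and Serpina1a on all 6. Some samples stood apart in their cell type markers, and in whole tissue fewer cells of a type and less RNA per cell cannot be told apart. Knockout replicate 2 had a summed signal of 4.50 over 5 corpus luteum markers (linear, with the 75th percentile of the array as 1), against 36.1 to 90.8 in the other samples. Wild type replicate 1 had 7.78 over 3 adipocyte markers, against 1.03 to 1.84 elsewhere. Wild type replicate 2 had 29.1 over 3 oviduct markers, against 0.275 to 0.725 elsewhere. Wild type replicate 3 had the lowest share of spots above background and the noisiest repeat spots (median coefficient of variation 6.46%, against 2.35% to 3.34% on the other arrays), and shared a slide with the 3 knockouts, while wild type replicates 1 and 2 lay on the other slide.

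No gene of the list passed the test, whether higher or lower. By limma, 0 of 34 had a Benjamini-Hochberg adjusted p under 0.05, where 0.00515% of all genes did, and each had an adjusted p of 1.00. At an unadjusted p under 0.05 there were also 0 of 34, against 4.16% of all genes. With slide as a block 4 of 34 reached it (Mgst2, Prdx6, Taldo1 and Sod1, all lower), against 9.63% of all genes, and with quantile normalization 2 of 34 (Taldo1 and Sod1), against 5.32%. In the knockout mean 20 of the 34 were lower (58.8%) and 14 higher, beside 54.5% of all genes lower. That split moved with the scaling, as did that of all genes. With median scaling 25 were lower (73.5%, all genes 62.2%), with quantile normalization 26 (76.5%, all genes 60.6%) and 16 by the deposited series table (47.1%, all genes 49.98%). The median log2 difference, knockout minus wild type as throughout, was -0.018, and that of all genes was -0.017. With slide as a block, which leaves wild type replicate 3 as the only wild type compared with the knockouts, the median was -0.13 (0.030 over all genes). Leaving out wild type replicate 3 gave 0.013, leaving out knockout replicate 1 gave -0.13, and leaving out knockout replicate 2 gave -0.051. Single differences ran from -0.37 (Me1) to 0.30 (Fth1), and 29 of the 34 lay within 0.25 of no difference, or 85.3%, as did 79.3% of all genes.

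**Figure D1:**
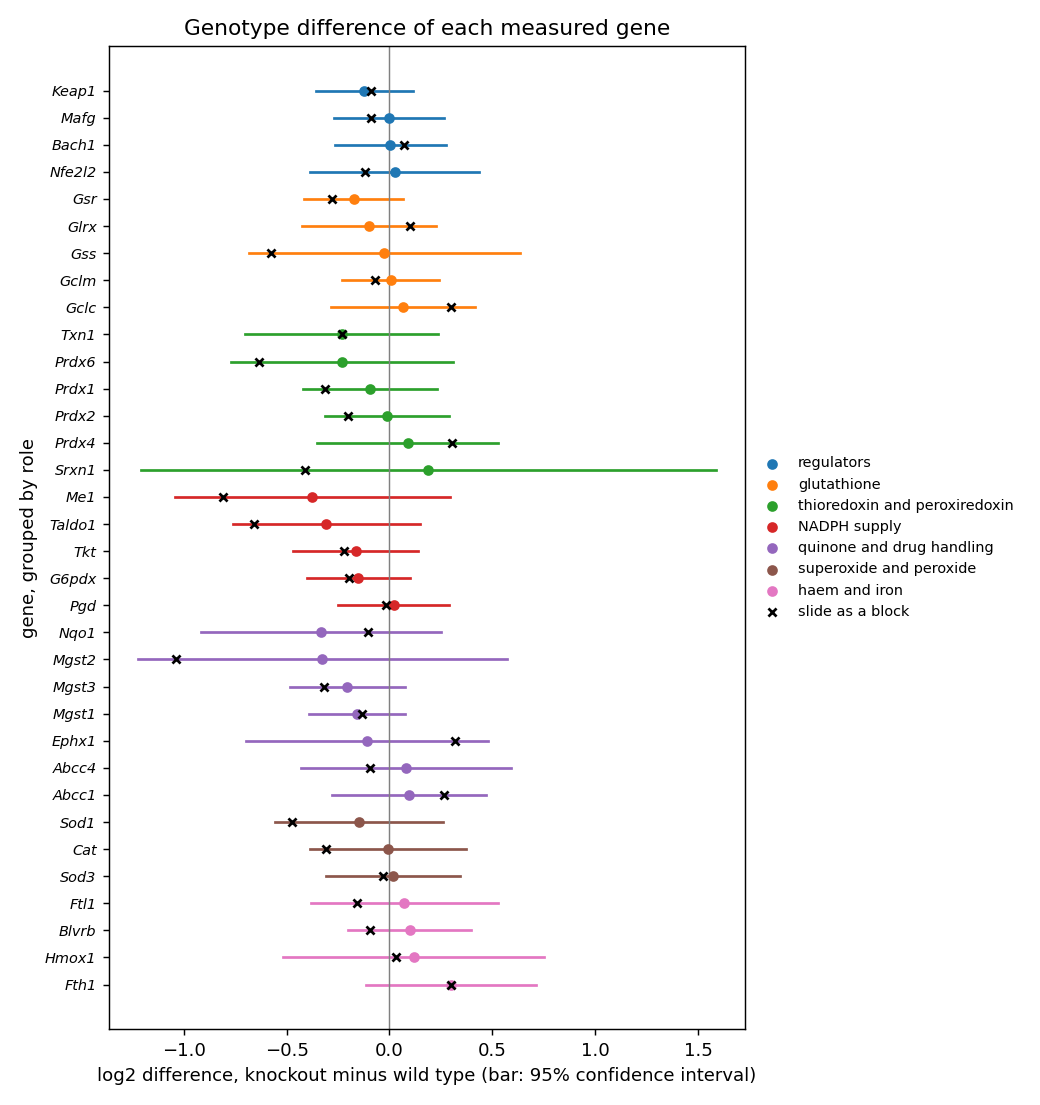
Log2 difference (x axis, knockout minus wild type) of the 34 measured genes, one per line and grouped by role. Points are limma estimates, bars their 95% confidence intervals and crosses the estimates with slide as a block; every bar spans 0, that of Srxn1 runs widest, from -1.21 to 1.59, and Txn1 and Fth1 rest on a single wild-type array.

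Of the 31 genes measured on all 6 arrays, 5 had every knockout below every wild type and 0 every knockout above, where 4.89% and 3.97% of all genes did so. The 5 were Keap1, Gsr, Mgst1, Mgst3 and Taldo1, and their differences lay between -0.31 and -0.12. The gaps between the genotypes were small, and at the second probes of Gsr and Mgst3, though not of Mgst1, the genotypes overlapped. For Taldo1 the highest knockout and the lowest wild type were both at 5.08. With slide as a block their differences were -0.089 for Keap1, -0.28 for Gsr, -0.14 for Mgst1, -0.32 for Mgst3 and -0.66 for Taldo1, and the absence of overlap itself fixes the sign of that comparison.

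The order of the probe signals is a description, since probes differ in how they bind and an order of signals is not an order of transcripts. The list was bright, with a median log2 signal of 2.49 against -0.63 over all genes. The ferritin chains Ftl1 and Fth1 came first, followed by Sod1, Taldo1, Me1, Prdx1, Mgst1, Tkt, Prdx6 and Prdx2. Then came Ephx1, Txn1, Mgst2, G6pdx, Nfe2l2, Prdx4, Pgd, Sod3, Mafg, Keap1, Gsr, Gclc, Srxn1, Hmox1, Mgst3 and Blvrb. Bach1, Cat, Gss, Abcc1, Glrx, Abcc4, Gclm, Nqo1 and Slc7a11 lay below the 75th percentile in their mean over the arrays, though Cat and Gss were above it in wild type replicate 3. Nqo1, often used as the marker of NRF2 activity, was brighter than only 21.5% of genes.

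**Figure D2:**
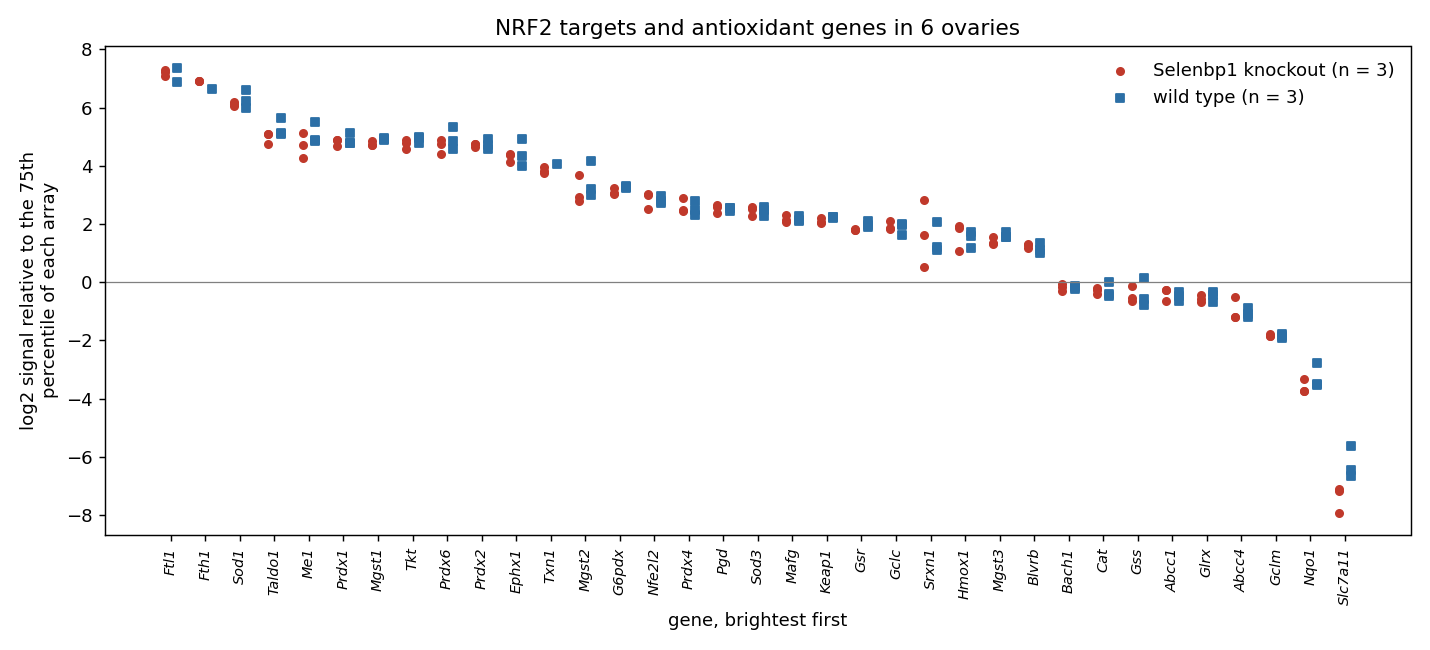
Log2 signal, with the 75th percentile of the array at 0 (y axis), for the 35 genes, brightest at left; red circles are the 3 knockout samples and blue squares the 3 wild-type samples, with fewer squares for Ftl1, Fth1 and Txn1. Signals run from 7.35 for Ftl1 to -7.92 for Slc7a11, and the circles and squares of most genes lie at the same height.

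Among the regulators, Nfe2l2 did not pass the test and its samples overlapped. Its log2 signal was 3.03, 2.99 and 2.51 in knockout replicates 1 to 3, against 2.79, 2.70 and 2.96 in wild type replicates 1 to 3 (probe at chr2:75513771-75513830). Knockout replicate 3 was the lowest of the 6 and knockout replicate 1 the highest. The difference was 0.026 (standard error 0.17, 95% confidence interval -0.38 to 0.44), and -0.12 with slide as a block. Keap1, the inhibitor of NRF2, was at 2.19, 2.07 and 2.05 in the knockouts, against 2.25, 2.23 and 2.19 in the wild types (probe over chr9:21035292-21035732, a span longer than the probe itself). The 3 knockouts lay just below the 3 wild types, and the difference was -0.12 (standard error 0.098, interval -0.36 to 0.11). Keap1 varied little between samples of a genotype, with a within-genotype SD of 0.057 that only 3.15% of genes undercut. Bach1, the repressor of haem-responsive targets, and Mafg, the partner of NRF2, differed by 0.0047 and -0.0017. The other 2 probes of Mafg differed by 0.036 and 0.041.

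No gene of glutathione synthesis and recycling passed the test. Gclc, the catalytic subunit of the rate-limiting ligase, was at 2.09, 1.86 and 1.83 in knockout replicates 1 to 3, against 1.99, 1.96 and 1.63 in wild type replicates 1 to 3 (probe at chr9:77641296-77641355). The lowest sample was wild type replicate 3, and the other 5 lay together. The difference was 0.066 (standard error 0.14, interval -0.28 to 0.42) and 0.30 with slide as a block. Gclm, the modifier subunit of the same ligase, with a match to the core printed above, was at -1.86, -1.86 and -1.79 in the knockouts, against -1.91, -1.85 and -1.77 in the wild types. The 6 values of Gclm lay close together, and the difference was 0.0060 (interval -0.23 to 0.24), or -0.070 with slide as a block. A change beyond 0.24 in either direction lay outside the interval, which takes no account of the slide. Gsr, the reductase that regenerates glutathione, was at 1.80, 1.79 and 1.83 in the knockouts, against 1.90, 1.96 and 2.08 in the wild types. All 3 knockouts were lower, by 0.17 in the mean (standard error 0.10, interval -0.42 to 0.068). Its second probe differed by -0.10, and there the genotypes overlapped (knockout replicate 1 at 0.53, wild type replicate 1 at 0.47). Gss, the synthetase of the second step, was at -0.12, -0.66 and -0.53 in the knockouts, against -0.79, -0.58 and 0.13 in the wild types. Wild type replicate 3 was the highest and wild type replicate 1 the lowest, and the difference was -0.024, -0.57 with slide as a block and 0.25 without wild type replicate 3. Glrx, a glutaredoxin that removes glutathione from proteins, differed by -0.098. Slc7a11, the cystine carrier that feeds glutathione synthesis, was not well above background in any knockout and was so in 1 of 3 wild types, and with values of -7.92, -7.19 and -7.12 in the knockouts and -6.65, -5.62 and -6.45 in the wild types no difference is given.

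The thioredoxin and peroxiredoxin genes held the most variable gene of the list. Srxn1, the sulfiredoxin that restores overoxidised peroxiredoxins, was at 2.81, 0.53 and 1.62 in knockout replicates 1 to 3, against 1.11, 1.22 and 2.06 in wild type replicates 1 to 3 (probe at chr2:151937009-151937068). The knockouts held both the highest and the lowest sample. The difference was 0.19 (standard error 0.58, interval -1.21 to 1.59), or -0.39 without knockout replicate 1 and 0.75 without knockout replicate 2. Its within-genotype SD of 0.89 was larger than that of 97.7% of genes. Txn1, the cytosolic thioredoxin, was at 3.75, 3.80 and 3.96 in the knockouts and at 4.07 in wild type replicate 3, its only wild-type value, because the scanner software marked its spot as an outlier in wild type replicates 1 and 2. That difference was -0.23 (interval -0.70 to 0.24). With the marked spots kept, wild type replicates 1 and 2 were at 3.42 and 3.46, and the difference was 0.19, of the opposite sign. Among the peroxiredoxins, which reduce peroxides with thiols, Prdx1 differed by -0.094, Prdx2 by -0.012, Prdx4 of the endoplasmic reticulum by 0.089 and Prdx6 by -0.23. The 4 probes of Prdx6 had differences of the same sign, from -0.28 to -0.21. The dimmest, with a mean of -5.39, was well above background in 2 of 3 wild types and was highest in wild type replicate 1. At the probes standing for these genes, Prdx1, Prdx2 and Prdx6 were highest in wild type replicate 3, and without it Prdx6 differed by -0.029.

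Genes that supply NADPH were lower in the knockout mean in 4 of 5 cases (all but Pgd, which was lower too with quantile normalization or median scaling), and none passed the test. Taldo1, an enzyme of the pentose phosphate pathway, was at 5.08, 4.74 and 5.08 in knockout replicates 1 to 3, against 5.11, 5.08 and 5.63 in wild type replicates 1 to 3 (probe at chr7:148588764-148588823). Wild type replicate 3 stood above the other 5 samples and knockout replicate 2 below them. The difference was -0.31 (standard error 0.19, interval -0.76 to 0.15), -0.66 under the slide block (unadjusted p = 0.0145, adjusted p = 0.380) and -0.13 without wild type replicate 3. Me1, the cytosolic malic enzyme, with a TGACTCAGC match, was at 5.13, 4.27 and 4.70 in the knockouts, against 4.88, 4.84 and 5.51 in the wild types (probe at chr9:86475077-86475136). The highest sample was again wild type replicate 3 and the lowest knockout replicate 2. Its 3 probes differed by -0.37, -0.46 and -0.63, and the brightest by -0.16 when wild type replicate 3 was left out and -0.16 when knockout replicate 2 was. G6pdx, the first enzyme of the pathway, was at 3.23, 3.03 and 3.08 in the knockouts, against 3.23, 3.26 and 3.31 in the wild types. Knockout replicates 2 and 3 were the 2 lowest samples, and the difference was -0.15 (interval -0.40 to 0.099). Tkt, the transketolase, differed by -0.16 and Pgd, the next dehydrogenase of the pathway, by 0.021.

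Genes that conjugate, reduce or export reactive molecules did not pass the test either. Nqo1, a quinone reductase, was at -3.73, -3.73 and -3.31 in knockout replicates 1 to 3, against -2.77, -3.52 and -3.49 in wild type replicates 1 to 3 (probe at chr8:109912440-109912499). A single sample, wild type replicate 1, stood above the rest. The difference of -0.33 (standard error 0.24, interval -0.92 to 0.25) was -0.087 without it. Ephx1, the microsomal epoxide hydrolase, was at 4.40, 4.37 and 4.13 in the knockouts, against 4.92, 4.32 and 3.98 in the wild types, and was likewise highest in wild type replicate 1. It differed by -0.11, and by 0.15 without that sample, while its dimmer second probe differed by 0.0057 and was also highest there. Mgst1, a membrane-bound glutathione transferase, was at 4.73, 4.72 and 4.84 in the knockouts, against 4.96, 4.90 and 4.90 in the wild types. All knockouts were lower, by 0.16 in the mean (standard error 0.097, interval -0.39 to 0.075), and its second probe differed by -0.29. Mgst3, of the same family, was at 1.34, 1.54 and 1.33 in the knockouts, against 1.54, 1.56 and 1.72 in the wild types. Its samples did not overlap, though knockout replicate 2 came close to wild type replicate 1, and the difference was -0.20 (interval -0.48 to 0.074). The second probe differed by -0.16 with overlap, as knockout replicate 2 was at 1.21 and wild type replicate 1 at 1.05. Mgst2 was at 3.67, 2.77 and 2.94 in the knockouts, against 2.99, 3.21 and 4.17 in the wild types. It overlapped widely, and its difference of -0.33 was -1.04 under the slide block (limma adjusted p = 0.475) and 0.029 without wild type replicate 3. The export pumps Abcc1 and Abcc4 differed by 0.095 and 0.080.

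Of the enzymes that remove superoxide and hydrogen peroxide, Sod1 was the brightest, at 6.18, 6.13 and 6.06 in knockout replicates 1 to 3, against 5.99, 6.23 and 6.60 in wild type replicates 1 to 3 (probe at chr16:90226509-90226568). Every knockout lay between wild type replicates 1 and 2, with wild type replicate 3 above them all. The difference was -0.15 (interval -0.56 to 0.26), -0.48 under the slide block (limma adjusted p = 0.459) and 0.016 without wild type replicate 3. Cat, the catalase of peroxisomes, was at -0.22, -0.28 and -0.39 in the knockouts, against -0.48, -0.39 and 0.016 in the wild types. The genotypes overlapped and wild type replicate 3 was again the highest, with a difference of -0.0074 (interval -0.39 to 0.37). Its dimmer second probe differed by 0.049, with knockout replicate 1 the highest. Sod3, the extracellular dismutase, differed by 0.015.

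All 4 genes of haem and iron were higher in the knockout mean, and none passed the test. The direction turned for Ftl1 with quantile normalization, and for Ftl1 and Blvrb with slide as a block. With 1 array left out it turned for Hmox1 (as low as -0.039) and Ftl1 (as low as -0.16). Hmox1, the inducible haem oxygenase, was at 1.92, 1.08 and 1.85 in knockout replicates 1 to 3, against 1.72, 1.19 and 1.58 in wild type replicates 1 to 3 (probe at chr8:77624207-77624266). Knockout replicate 2 and wild type replicate 2 were low and the other 4 samples high. The difference was 0.12 (standard error 0.26, interval -0.52 to 0.75), and 0.38 without knockout replicate 2. Fth1, the ferritin heavy chain, was at 6.93, 6.92 and 6.93 in the knockouts and at 6.63 in wild type replicate 3, the only wild-type sample whose spot was not marked as an outlier. That difference was 0.30 (standard error 0.15, interval -0.11 to 0.71). With the marked spots kept, wild type replicates 1 and 2 were at 6.49 and 6.47, all 3 knockouts lay above all 3 wild types, and the difference was 0.40 (unadjusted p = 0.00620, limma adjusted p = 1.00). Ftl1, the light chain, was at 7.21, 7.07 and 7.30 in the knockouts, against 6.89 and 7.35 in wild type replicates 1 and 3. The wild types spanned the knockouts, with a difference of 0.073 and of 0.18 with the marked spot of wild type replicate 2 kept. The array annotation lists further transcripts for the Ftl1 probe, so the source of its signal is uncertain. Blvrb, a biliverdin reductase, differed by 0.098.

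Values also varied between ovaries of a genotype. Wild type replicate 3 held the highest value of 14 of the 31 genes measured on all arrays (45.2%), beside 21.4% of all genes. Knockout replicate 2 held the lowest value of 12 (38.7%), beside 21.0% of all genes. Knockout replicate 1 held the highest value of a further 8 (25.8%), beside 12.8% of all genes. The median within-genotype SD of the list was 0.17, close to 0.19 over all genes. It ran from 0.055 for Mgst1 to 0.89 for Srxn1 among the genes with 6 values.

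**Figure D3:**
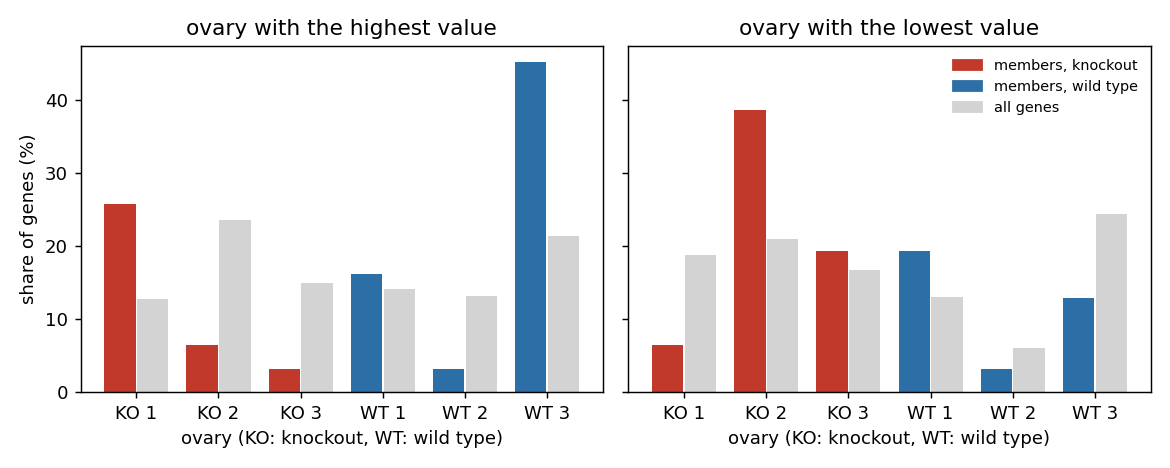
Share of genes (y axis, percent) whose highest (left) or lowest (right) value fell in each ovary; coloured bars are the 31 genes of the list with 6 values, red for knockout and blue for wild type, and grey bars all 19206 genes with 6 values. Wild type replicate 3 has the tallest coloured bar for highest values, at 45.2%, and knockout replicate 2 for lowest values, at 38.7%.

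The most variable genes were set beside markers of ovarian cell types, a pairing chosen after the values were seen. Srxn1 was highest in knockout replicate 1 and lowest in knockout replicate 2, and so were the corpus luteum markers Prlr, Akr1c18, Lhcgr, Sfrp4 and Ptgfr in sum, all 5 of them measured. That sum was 90.8, 4.50 and 62.4 in knockout replicates 1 to 3, against 44.8, 36.1 and 55.8 in wild type replicates 1 to 3. Taken singly, 2 of the 5 (Sfrp4 and Ptgfr) were highest in knockout replicate 1. Prlr and Lhcgr were highest in wild type replicate 3, and Akr1c18 was highest in knockout replicate 3 and lowest in wild type replicate 3. Sfrp4, which gave most of the sum in every sample but knockout replicate 2, was at 0.27 in knockout replicate 2, against 4.64 to 5.95 in the other samples. Of the theca and interstitial markers, 4 of 5 were measured (Cyp17a1, Lhcgr, Star and Cyp11a1). They summed to 102, 27.8 and 84.2 in the knockouts, against 81.4, 74.96 and 117 in the wild types, again lowest in knockout replicate 2 and highest in wild type replicate 3. Cyp11a1 gave most of that sum in every sample, and Cyp17a1 ran otherwise, lowest in wild type replicate 3 (2.39) and highest in knockout replicate 1 (4.25). Mgst2 and Me1 shared the highest and lowest sample of the sum. The part of these cell types in the values of Srxn1, Mgst2 and Me1 was not tested.

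Hmox1, which macrophages express as they break down haem, was set beside the 5 macrophage markers (Adgre1, Cd68, Csf1r, C1qa and Mrc1). Their sum was 9.97, 5.59 and 7.89 in knockout replicates 1 to 3, against 7.90, 6.82 and 7.21 in wild type replicates 1 to 3. Both were highest in knockout replicate 1 and lowest in knockout replicate 2, with wild type replicate 2 the next lowest. All 5 markers were highest in knockout replicate 1 and 4 were lowest in knockout replicate 2, while Cd68 was lowest in wild type replicate 2 (-3.39, and -2.87 in knockout replicate 2). Nqo1 and Ephx1 were highest in wild type replicate 1, which also held the most fat cell signal. The adipocyte sum over Fabp4, Plin1 and Retn, 3 of 5 listed markers, was 1.84, 1.06 and 1.63 in the knockouts, against 7.78, 1.44 and 1.03 in the wild types. Adipoq was at 0.16 in wild type replicate 1 and at -4.39 or lower elsewhere. Red cells also carry Prdx2, Blvrb and Cat, and the red cell sum over Hba-a1, Alas2 and Slc4a1 (3 of 5 listed) was 36.8 in knockout replicate 2, against 4.55 to 9.59 elsewhere. In knockout replicate 2, Prdx2 was at 4.75 (4.57 to 4.92 elsewhere), Blvrb at 1.28 (1.01 to 1.35) and Cat at -0.28 (-0.48 to 0.016). All 3 genes lay there within the range of the other samples. The part of macrophages, fat cells and red cells in these values was not tested.

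**Figure D4:**
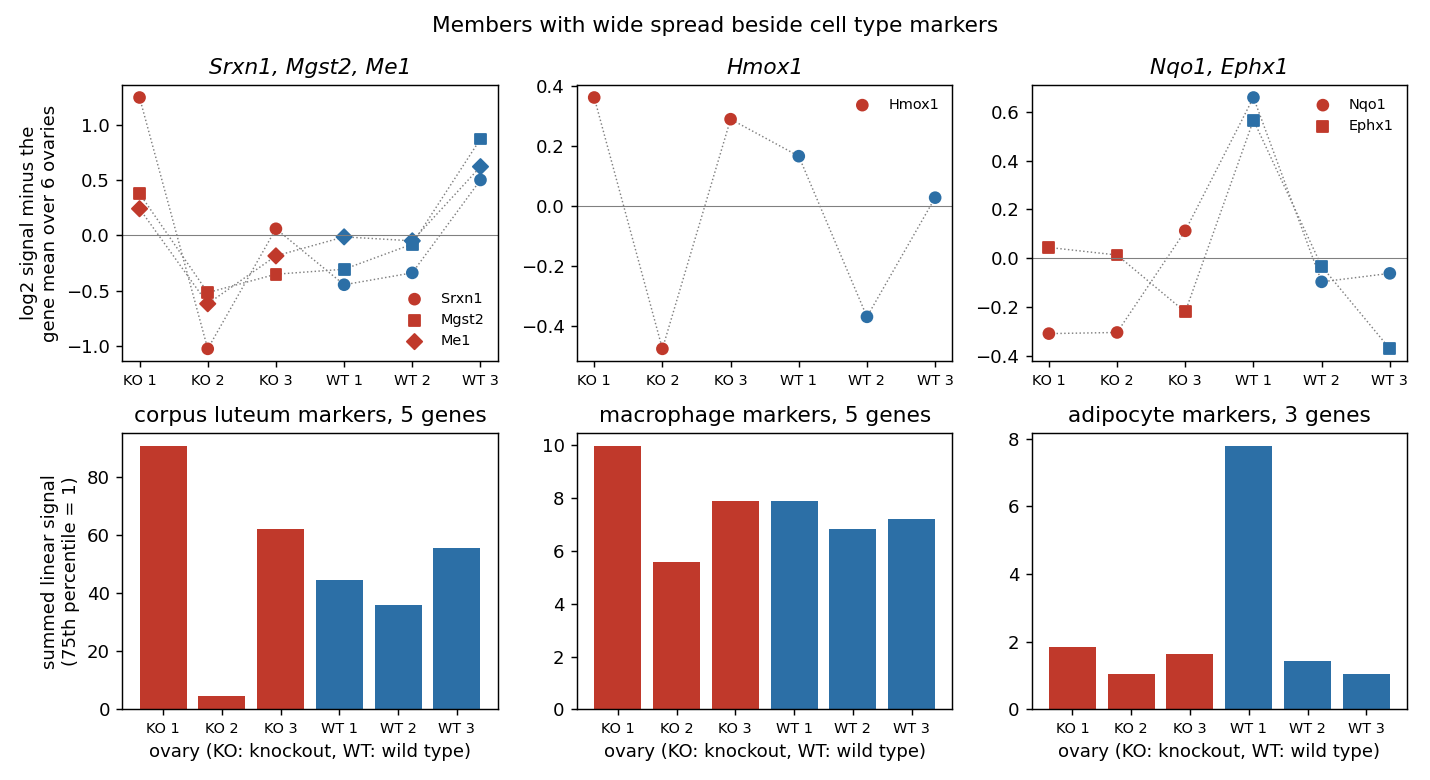
Upper panels give the log2 signal minus each gene's mean over the 6 ovaries (y axis) for Srxn1, Mgst2 and Me1, for Hmox1, and for Nqo1 and Ephx1, and lower panels give the summed linear signal of corpus luteum, macrophage and adipocyte markers (y axis, 75th percentile of the array as 1), with knockouts in red and wild types in blue. The corpus luteum sum is 4.50 in knockout replicate 2, where Srxn1, Mgst2 and Me1 are lowest, and the adipocyte sum is 7.78 in wild type replicate 1, where Nqo1 and Ephx1 are highest. Mgst2 and Me1 are highest in wild type replicate 3. There the corpus luteum sum is 55.8, below 90.8 in knockout replicate 1 and 62.4 in knockout replicate 3.

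A further 40 genes of the pathway and of antioxidant defence were examined, of which 38 were measured. With limma, 0 rose and 0 fell at an adjusted p under 0.05, and 1 of 38 had an unadjusted p under 0.05, beside 4.16% of all genes. Of the 38, 32 were lower in the knockout mean (84.2%, beside 54.5% of all genes) and 6 higher, with a median of -0.10 (all genes -0.017). With slide as a block 25 were lower (65.8%, all genes 45.6%), and 31 to 34 were lower with the 3 other scalings named above. With 1 array left out, 26 to 33 were lower. The fewest, without wild type replicate 3, were 68.4% (all genes 57.0%), with a median of -0.051. The most, without wild type replicate 2, were 86.8% (all genes 50.4%). With array weights 25 were lower (65.8%, all genes 56.8%). The 3 with the smallest p are given next. Abcc5, an export pump, was at 0.19, 0.17 and 0.066 in knockout replicates 1 to 3, against -0.0057, -0.17 and -0.21 in wild type replicates 1 to 3. All knockouts lay above all wild types, with a difference of 0.27 (standard error 0.11, unadjusted p = 0.0432, adjusted p = 1.00). Sqstm1, the autophagy receptor that binds KEAP1, was at 2.66, 2.44 and 2.64 in the knockouts, against 2.88, 2.71 and 2.87 in the wild types. Here all knockouts lay below all wild types, with a difference of -0.24 (standard error 0.11). Txnrd2, the mitochondrial thioredoxin reductase, overlapped and differed by -0.22. Cul3 and Rbx1, which with KEAP1 form the ubiquitin ligase that acts on NRF2, differed by -0.17 and -0.18, and Txnrd1, the cytosolic thioredoxin reductase and an NRF2 target, by -0.16. Cul3, Rbx1 and Txnrd1 were picked for their place in the pathway, after their values were seen.

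Differences are given by match to the core as a description. The 11 genes with the core in a window had a median difference of -0.0017 and the 17 measured genes with a window but no core one of -0.098. Prdx1 and Me1, with TGACTCAGC, differed by -0.094 and -0.37.

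Genes whose pattern was most like a member were sought with Pearson's r over the 6 arrays, among 19205 genes. For Nfe2l2 they were Wnt6 (r = 0.992), Cog1 (0.986), Ly6i (0.965), Cd6 (0.959) and Lonp2 (0.956). For Nqo1 they were Gda (0.991), Usp13 (0.979), Cadm3 (0.978) and 2 transcripts without a gene symbol. An r above 0.95 was reached by 8 genes for Nfe2l2 and by 31 for Nqo1. Over 6 arrays and so many genes these values are a description only, and 4 of the 6 arrays shared a slide.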

How the data were processed

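Deposited scanner files held spot intensity from Agilent Feature Extraction 10.7.1.1, from which Feature Extraction had subtracted background and removed trends across an array, per the file headers, without scaling arrays to each other. A deposited series table of intensity, with 1 median shared by all 6 columns and a method not given in the sources used here, served as an alternative. From the deposited scanner files, the processed intensity was divided by the array's 75th percentile over non-control spots and put on a log2 scale, spots marked as outliers (192 to 459 of 43020 per array) were left out, and repeat spots were averaged. Saturated spots numbered 0. A probe was kept where well above background on all 3 arrays of a genotype (24415 probes, 19412 genes), and the brightest kept probe stood for a gene. Of 39429 probes, 26412 were named by RefSeq accession, 3854 by symbol, 735 by an older symbol, and 8428 kept the file's name. The genotypes were compared with limma 3.58.1 (R 4.3.3) on all 6 arrays, two-sided, adjusted over all kept probes. The labels name replicates but not the animals behind them, so a p-value here rests on the spread among these 6 samples, and the number of arrays limits precision. The genes, lists and tests were chosen with earlier results of these data known. Genes given per sample were the 8 with the smallest p, those without overlap, the 5 brightest, 3 dimmest and 5 most variable, and 10 genes at the core of the pathway. The limma step was tested on simulated data, with changes far larger than those of the list and without a slide effect. That simulation does not cover differences of the size found here. Probe positions follow mm9; exons were not worked out. Alternatives covered background correction, scaling, filters, slide, replicate block, array weights, probe choice, each array left out and, added after seeing the data, marked spots kept. Tables and figures were made in Python 3.11.15 with numpy 2.4.6, matplotlib 3.10.9 and pandas 2.3.3.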

Additional observations from a re-analysis of the deposited data

How the results depend on the processing

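In all 20 alternatives 0 of the 34 genes passed an adjusted p under 0.05 in limma, the smallest adjusted p being 0.315 (Tkt with array weights). That fit leaned on wild type replicate 2, with a weight of 5.3. Wild type replicate 3 had 0.349, and the other arrays had 0.437 to 1.49. Of the 34, 12 kept their sign in every alternative and 22 turned in at least 1, in 89 of 672 values. These values are not separate checks. For genes with 6 values, the filters, the trended fit and the replicate block leave the difference as it was. The shared slide alone repeats the difference found with slide as a block. The median difference of the list was -0.11 with quantile normalization, -0.13 with slide as a block and with the shared slide alone, and -0.13 to 0.013 with 1 array left out. Selenbp1 kept its direction but lost its call at -2.75 with no filter (adjusted p = 0.0824), -2.74 with slide as a block (adjusted p = 0.0792), -2.74 on the shared slide alone (adjusted p = 0.347) and -2.75 with the replicate block (adjusted p = 0.557), and ran from -2.84 to -2.64 with 1 array left out, where 4 of 6 fits lost the call (adjusted p from 0.0186 to 0.167). Samples of the same number did not deviate together (r of -0.33, 0.30 and -0.027), and with the replicate block 0 genes of the list were called. The median was then -0.018, but that block leaves the difference of a gene with 6 values unchanged. With quantile normalization the differences that turned sign were -0.0098 for Nfe2l2, -0.015 for Bach1, -0.0099 for Gclm, -0.012 for Pgd, -0.011 for Sod3 and -0.12 for Ftl1. With median scaling the differences that turned sign were -0.0056 for Nfe2l2, -0.027 for Bach1, -0.026 for Gclm, -0.011 for Pgd and -0.016 for Sod3. With slide as a block or with the shared slide alone the differences that turned sign were -0.12 for Nfe2l2, 0.32 for Ephx1, -0.092 for Abcc4, -0.070 for Gclm, 0.10 for Glrx, -0.41 for Srxn1, -0.015 for Pgd, -0.034 for Sod3, -0.093 for Blvrb and -0.16 for Ftl1. With slide as a random block the differences that turned sign were -0.0061 for Nfe2l2 and -0.011 for Gclm. With normexp background correction the differences that turned sign were -0.074 for Bach1, -0.076 for Gclm, 0.11 for Gss, 0.0070 for Sod1 and -0.037 for Sod3. With array weights the differences that turned sign were -0.086 for Bach1, 0.046 for Mafg, -0.042 for Gclc, 0.14 for Gss, 0.031 for Prdx1, 0.0015 for Prdx2, -0.17 for Prdx4 and 0.065 for Cat. In the deposited series table the differences that turned sign were 0.030 for Mafg, 0.23 for Txn1, 0.017 for Prdx2 and 0.010 for Cat. With the mean of a gene's probes the differences that turned sign were 0.025 for Mafg and 0.021 for Cat. With outlier spots kept (chosen after seeing the data) the difference that turned sign was 0.19 for Txn1. With 1 array left out the differences of genes that turned ran -0.065 to 0.19 for Nfe2l2, -0.059 to 0.073 for Bach1, -0.065 to 0.043 for Mafg, -0.32 to 0.15 for Ephx1, -0.14 to 0.19 for Abcc4, -0.60 to 0.029 for Mgst2, -0.051 to 0.13 for Gclc, -0.027 to 0.044 for Gclm, -0.21 to 0.25 for Gss, -0.39 to 0.75 for Srxn1, -0.15 to 0.017 for Prdx1, -0.093 to 0.083 for Prdx2, -0.054 to 0.22 for Prdx4, -0.030 to 0.093 for Pgd, -0.29 to 0.016 for Sod1, -0.073 to 0.10 for Sod3, -0.10 to 0.14 for Cat, -0.039 to 0.38 for Hmox1 and -0.16 to 0.30 for Ftl1. The causes were not tested. Without wild type replicate 3, Txn1 and Fth1 have no value, and the strict filter and the trended fit leave out Txn1, Ftl1 and Fth1. Signal over background limits Slc7a11.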

Other observations

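Idh1, the cytosolic isocitrate dehydrogenase that supplies NADPH, was named after its values were seen. It was at 1.81, -0.26 and 1.19 in knockout replicates 1 to 3, against 0.57, 0.73 and 2.33 in wild type replicates 1 to 3. Its lowest sample was knockout replicate 2 and its highest wild type replicate 3, as for Me1 and Mgst2, and the genotypes overlapped, with a difference of -0.30 (standard error 0.66).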
